A study of Mus musculus with 6 samples.

Results

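The core autophagy genes are 45 of the 18134 named genes in a bulk RNA sequencing study of mouse embryonic fibroblasts (MEFs, connective tissue cells from embryos kept in culture). They were picked by gene symbol, with no measured value in the rule, and rows that shared a symbol were summed. The rule was chosen with earlier results of these data known. The symbols cover the kinase complex that starts autophagy, the lipid kinase complex, membrane supply, the conjugation enzymes, the ATG8 family, cargo receptors, a tether and a pair of transcription factors. Of the 45 genes, 44 had enough counts to be tested. Calcoco2, a cargo receptor, had 0 or 1 count in each library and was not tested. Map1lc3b, the only other symbol of the rule, was not analysed here. GABARAP, GABARAPL1, GABARAPL2 and MAP1LC3A are spelled as the deposited tables spell them, in capitals.

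Autophagy wraps part of the cytoplasm in a newly built membrane sac, the autophagosome, and delivers it to the lysosome for breakdown. Kinase complexes start the sac, lipid transfer and scramblase proteins enlarge it, and a chain of ubiquitin-like reactions fixes ATG8 proteins to its membrane, where they hold cargo receptors. Fibroblasts that lack Atg5 or Atg7 are a standard cell system for the study of this pathway.

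The study compared 3 libraries of MEFs with the genotype Ufl1-KO and 3 libraries of control MEFs named NC, an abbreviation that the labels do not spell out. Ufl1 encodes the enzyme that joins the ubiquitin-like protein UFM1 to its substrates. The title of the series mentions knockdown and hypoxia for 24 h, whereas the labels of the libraries give the genotype and no oxygen level, so only genotypes were compared. The labels name no line or clone, and an effect of the line cannot be told apart from that of the genotype. They do not say that replicates were separate cultures, so the p-values cover only the spread among these libraries, and that spread may be technical.

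Named genes received 15788306 to 21692720 counts per library. Ufl1 itself had 71, 69 and 102 counts in the Ufl1-KO libraries and 382, 497 and 396 counts in NC. Of 10 fibroblast markers, 8 had a mean of at least 1 CPM (counts scaled to a common library total by TMM), and the 10 together summed to 13665 to 13762 CPM in Ufl1-KO against 24219 to 28905 CPM in NC. Epithelial markers summed to 30.2 to 33.0 against 50.1 to 57.4 CPM, endothelial markers to 5.51 to 6.51 against 4.83 to 7.42 CPM with Emcn at 0, and blood cell markers to 36.1 to 39.3 against 39.6 to 46.8 CPM. The part of these markers in the autophagy values was not tested, and in bulk RNA fewer cells of a type cannot be told apart from less RNA per cell. NC replicate 1 stood apart from the other controls: its log2 values differed from theirs with an SD of 0.41 and 0.38 over genes, against 0.26 between NC replicates 2 and 3 and 0.22 to 0.24 among the Ufl1-KO libraries.

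In Ufl1-KO, 14 of the 44 tested autophagy genes were higher and 20 were lower, and 10 were not called (edgeR's quasi-likelihood test, adjusted p below 0.05). In 6 of the 8 roles some genes were higher and others lower. GABARAPL1, an ATG8 gene, fell most, to well under the NC level in every Ufl1-KO library, while its relative GABARAPL2 rose. The conjugation genes Atg3, Atg4a, Atg4d and Atg5 and the kinase gene Ulk2 rose, and Atg9b, Atg10, Atg16l2, Atg2b and Atg14 fell. Changes were common in these cells: 66.7% of the 12224 genes tested were called, 33.3% higher and 33.4% lower. The members' median log2 fold change was -0.10 and that of all genes was 0.00.

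Most changes of members were small. In 15 members a call came with an absolute log2 fold change of at least 0.5, 5 higher and 10 lower, and 44.3% of all genes met the same rule. The groups did not overlap in CPM for 33 of the 44 members, against 71.7% of all genes. With library size in place of TMM scaling, 17 members were higher and 12 lower, beside 43.9% and 25.5% of all genes. The median then stood at 0.08 for members and at 0.18 for all genes. Without NC replicate 1, 15 members were higher and 21 lower, beside 38.6% and 37.1% of all genes. In 25 of the 34 called members this library lay on the Ufl1-KO side of the other 2 NC libraries' mean. The same share was not computed for all genes, but over all genes this library was also nearer Ufl1-KO. Its log2 values differed from those of the Ufl1-KO libraries with an SD of 0.77 to 0.79, against 0.87 to 0.93 for NC replicates 2 and 3.

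**Figure D1:**
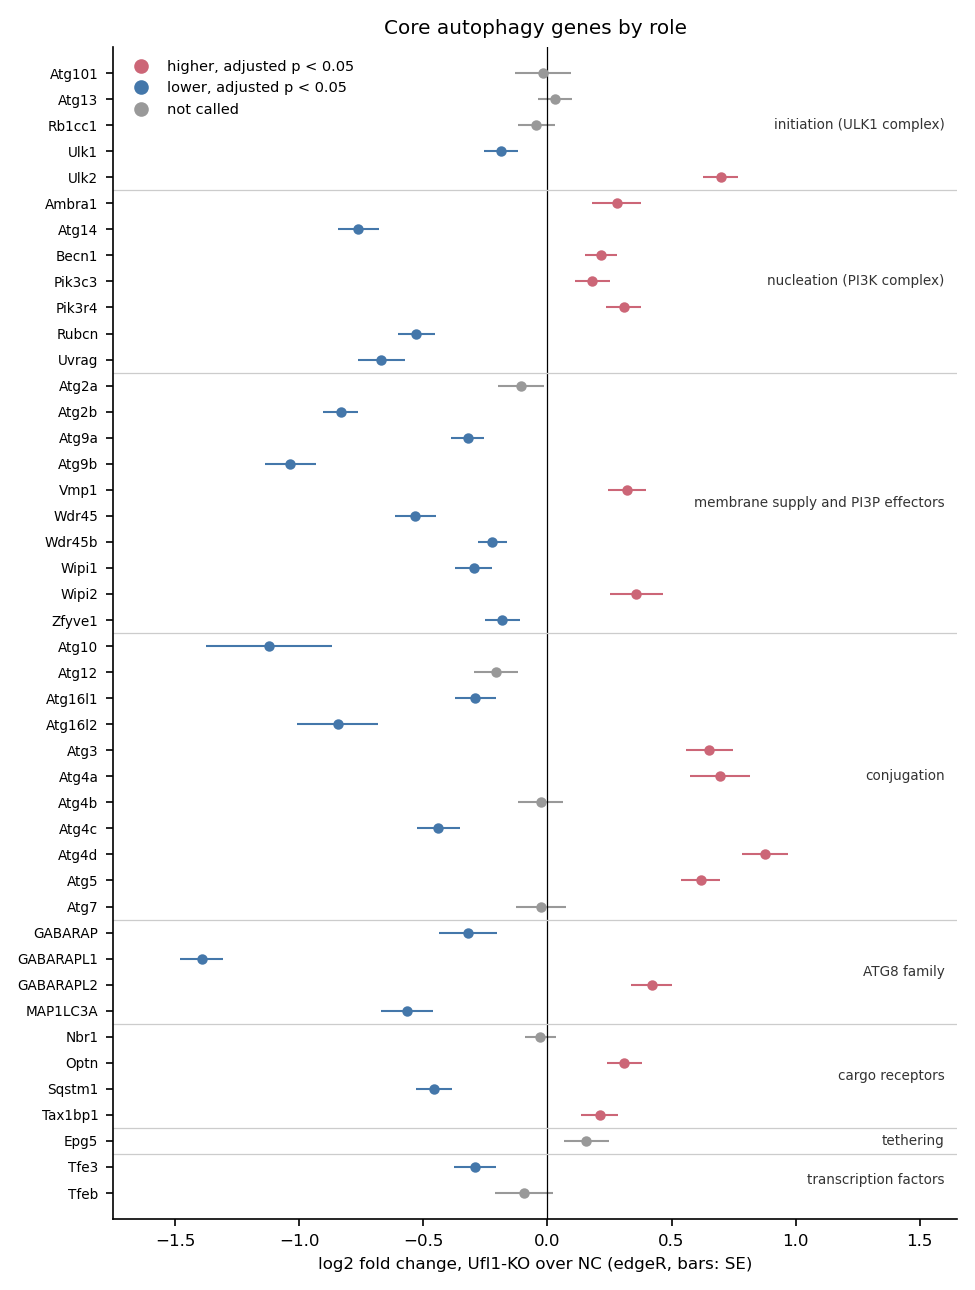
Log2 fold change (x axis, Ufl1-KO over NC, edgeR) of the 44 tested autophagy genes, grouped by role, with bars for the standard error. Red genes were higher, blue genes lower and grey genes not called, and most roles hold points on both sides of 0, from GABARAPL1 at -1.39 to Atg4d at 0.88.

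Promoters were read for motifs of factors tied to autophagy and to stress. RefSeq promoters (GRCm38.p6, from 250 bases before to 50 after a start) were found for 36 of the 45 genes, as 47 promoters. No entry was used for Atg12, Atg16l1, Becn1, Calcoco2, Epg5, MAP1LC3A, Pik3c3, Rb1cc1 and Wdr45b. The E-box CACGTG, a motif bound by TFEB, TFE3 and other factors, stood in 5 of the 36 genes (13.9%) and in 8.09% of all 27025 genes with a promoter. It reads the same on both strands. Its 5 genes did not share a direction: Atg3 and Atg5 rose, Atg14 and Rubcn fell, and Atg7 was not called. The promoters of the 4 called genes are printed with the E-box in capitals, together with that of GABARAPL1, the most strongly changed member, which holds none.
Atg3, chr16:45158579-45158878, plus strand: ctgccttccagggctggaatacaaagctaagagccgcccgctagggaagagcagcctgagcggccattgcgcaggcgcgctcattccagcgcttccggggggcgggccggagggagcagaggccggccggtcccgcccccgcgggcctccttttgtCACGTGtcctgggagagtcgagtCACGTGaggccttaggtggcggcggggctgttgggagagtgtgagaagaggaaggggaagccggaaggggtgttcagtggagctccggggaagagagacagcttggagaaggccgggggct
Atg5, chr10:44268089-44268388, plus strand: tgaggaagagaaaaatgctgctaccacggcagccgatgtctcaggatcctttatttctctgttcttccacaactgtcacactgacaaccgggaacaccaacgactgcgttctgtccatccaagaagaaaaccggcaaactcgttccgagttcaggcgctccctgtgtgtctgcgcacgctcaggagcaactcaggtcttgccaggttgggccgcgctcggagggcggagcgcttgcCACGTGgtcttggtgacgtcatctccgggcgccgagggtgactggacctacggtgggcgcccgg
Atg14, chr14:47568385-47568684, minus strand: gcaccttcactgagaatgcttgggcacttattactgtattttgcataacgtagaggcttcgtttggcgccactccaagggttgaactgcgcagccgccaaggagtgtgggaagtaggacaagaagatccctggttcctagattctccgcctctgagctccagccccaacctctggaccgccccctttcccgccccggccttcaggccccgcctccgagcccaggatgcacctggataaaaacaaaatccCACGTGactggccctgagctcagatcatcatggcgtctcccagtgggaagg
Rubcn, chr16:32868317-32868616, minus strand: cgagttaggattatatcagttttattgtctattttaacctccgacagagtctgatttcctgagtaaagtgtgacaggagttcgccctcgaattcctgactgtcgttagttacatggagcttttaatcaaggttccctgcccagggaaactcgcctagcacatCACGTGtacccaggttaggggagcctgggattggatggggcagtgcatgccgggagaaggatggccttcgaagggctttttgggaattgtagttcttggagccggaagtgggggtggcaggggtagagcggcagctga
GABARAPL1, chr6:129532942-129533241, plus strand: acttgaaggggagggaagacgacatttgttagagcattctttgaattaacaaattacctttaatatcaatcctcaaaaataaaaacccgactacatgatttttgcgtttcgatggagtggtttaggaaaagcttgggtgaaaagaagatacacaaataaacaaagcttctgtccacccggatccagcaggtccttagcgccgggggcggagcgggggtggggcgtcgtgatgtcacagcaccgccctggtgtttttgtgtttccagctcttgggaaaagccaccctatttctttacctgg

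Atg3 carries 2 E-boxes, and one of them lies within the longer TCACGTGA, a core of the CLEAR element of lysosomal genes. That longer motif was present in 1 of the 36 genes (2.78%) and in 1.12% of all genes. Rubcn has another promoter in RefSeq, without an E-box. The motifs TGATGNAA (an ATF4 element core) and GTAAACA (a FOXO core), searched on both strands, were in 0 of the 36 genes and in 4.51% and 4.05% of all genes. The hypoxia motif core ACGTG, which is also part of every CACGTG, was in 16 of the 36 genes (44.4%) and in 21.8% of all genes, and its holders comprised 6 of the 12 higher genes, 7 of the 17 lower genes and 3 of the 7 uncalled genes with a promoter. Members' promoters were also richer in G and C, with a median of 59.3% against 52.7%. The motif shares of all genes include genes that were not tested here, and shares among tested genes were not computed. These motifs were chosen after expression values were seen, and a match describes these letters only.

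Initiation begins with the ULK complex, in which Ulk1 and Ulk2 are the kinases, Atg13 and Atg101 are regulatory subunits and Rb1cc1 (FIP200) is the scaffold. The kinase genes moved in opposite directions. Ulk2 (chr11:61775649-61855073, minus strand, GRCm38) stood at 63.3, 62.4 and 63.3 CPM in the Ufl1-KO libraries and at 41.1, 37.1 and 38.4 CPM in NC. All Ufl1-KO libraries were above all NC libraries, and the level was 1.62-fold higher (log2 fold change 0.70, SE 0.07, edgeR adjusted p = 3.69e-05). Ulk1 (chr5:110784488-110810097, minus strand) stood at 106, 102 and 106 CPM in Ufl1-KO and at 127, 112 and 118 CPM in NC. These groups did not overlap either, and Ulk1 was lower by a small step (-0.19, SE 0.07, edgeR adjusted p = 0.0332) that was not called with library size scaling (adjusted p = 0.913) or from FPKM (0.01, adjusted p = 0.927). It was also lost without any 1 of the Ufl1-KO libraries and NC replicate 3 (adjusted p from 0.0808 to 0.121).

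The remaining 3 subunits were not called. Rb1cc1 was at 171, 177 and 170 CPM in Ufl1-KO and at 198, 169 and 169 CPM in NC, with overlapping groups and NC replicate 1 alone at the top. Its log2 fold change was -0.05, with a 95% interval from -0.21 to 0.12. Atg13 and Atg101 had log2 fold changes of 0.03 and -0.02, and their groups overlapped too. Atg13 was called higher in 4 of 18 alternative fits. Among them were library size scaling (0.21, edgeR adjusted p = 0.0232) and limma on log2(FPKM + 1) (0.20, adjusted p = 0.0346).

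Nucleation needs the lipid kinase Pik3c3 (VPS34) with its regulatory subunit Pik3r4 (VPS15) and Becn1. Atg14 directs this core to autophagosome formation, whereas Uvrag and Rubcn mark other forms of the complex, and Ambra1 binds Becn1. All 7 genes were called, where 66.7% of all genes were. Becn1, Pik3c3, Pik3r4 and Ambra1 were higher, and Atg14, Uvrag and Rubcn were lower. Becn1 (chr11:101285952-101302286, minus strand) stood at 73.7, 70.3 and 74.6 CPM in Ufl1-KO and at 65.2, 61.3 and 61.7 CPM in NC. The Ufl1-KO libraries were all higher, by 0.22 on the log2 scale (SE 0.07, edgeR adjusted p = 0.0169), and the call ended without Ufl1-KO replicate 1 (adjusted p = 0.0689) or 3 (0.0674). Exons of Becn1 overlap those of Cntd1 on the opposite strand over 3104 bases, and no strand setting of the counting is given. In 16 of the 45 members exons overlap those of another gene, in 14 of them a gene on the opposite strand. Among the 16 are Atg9a (1878 bases), Uvrag (1589), Wdr45 (818, same strand), Sqstm1 (580) and Atg2b (383). The part of these overlaps in the values was not tested. Pik3c3, Pik3r4 and Ambra1 had log2 fold changes of 0.18, 0.31 and 0.28, with no overlap of groups. The call for Pik3r4 held in every fit. That for Pik3c3 ended without any 1 of the Ufl1-KO libraries or NC replicates 2 and 3 (0.0796 to 0.17 for the adjusted p), and that for Ambra1 without Ufl1-KO replicate 1 or 2 or NC replicate 2 or 3 (0.083 to 0.0954).

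Atg14 (chr14:47540893-47570649, minus strand) was at 26.1, 24.5 and 26.1 CPM in Ufl1-KO and at 40.7, 43.0 and 46.6 CPM in NC. Every Ufl1-KO library was lower, and the level fell 1.7-fold (log2 fold change -0.76, SE 0.08, edgeR adjusted p = 5.11e-05). Uvrag, which takes part in endosome traffic and autophagosome maturation, was at 53.0, 56.4 and 47.3 CPM against 90.4, 75.2 and 83.5 CPM (log2 fold change -0.67, SE 0.09). Rubcn, an inhibitor of autophagosome maturation, was at 145, 133 and 140 CPM against 221, 187 and 195 CPM (-0.53, SE 0.08). The groups of both genes were apart, with the highest NC value of each in replicate 1.

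With TMM scaling, membrane supply and the proteins that read the lipid PI3P form the step with the most genes lower, 7 of 10. A further 2 were higher and 1 was not called. Of all genes, 33.4% were lower and 33.3% higher. This rank depends on the scaling: with library size, Atg9a, Wipi1, Wdr45b and Zfyve1 were not called, and 25.5% of all genes were lower. The lipid transfer genes Atg2a and Atg2b differed. Atg2b (chr12:105616136-105685211, minus strand) was at 118, 120 and 110 CPM in Ufl1-KO and at 220, 194 and 205 CPM in NC. It fell 1.78-fold with no overlap (log2 fold change -0.83, SE 0.07, edgeR adjusted p = 1.23e-05). Atg2a was not called, at 70.2 ± 3.64 against 75.6 ± 9.01 CPM (SD, n = 3 each) with overlapping groups.

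The scramblase genes Atg9a and Atg9b were both lower. Atg9b (chr5:24384181-24392143, minus strand) was at 36.5, 30.6 and 35.2 CPM in Ufl1-KO and at 62.4, 77.7 and 69.8 CPM in NC. All Ufl1-KO libraries were below all NC libraries, a 2.05-fold fall (log2 fold change -1.04, SE 0.10, edgeR adjusted p = 3.12e-05). Its exons overlap those of Nos3 on the opposite strand over 294 bases. Atg9a fell by 0.32 on the log2 scale (SE 0.07), and this call was lost with library size scaling (adjusted p = 0.09) and from FPKM (0.248). Vmp1, another scramblase, was higher (0.32, SE 0.08).

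Of the PI3P-binding WIPI family, Wdr45 (WIPI4, the partner of ATG2 proteins) moved furthest. It was at 24.5, 25.2 and 23.0 CPM in Ufl1-KO and at 33.0, 36.3 and 35.7 CPM in NC, all Ufl1-KO libraries being lower (chrX:7714333-7728206, plus strand; log2 fold change -0.53, SE 0.08). Wipi1 (-0.30) and Wdr45b (-0.22) were lower by less, and both calls were lost with library size scaling, with adjusted p of 0.177 and 0.543. Leaving out Ufl1-KO replicate 1 also ended the Wdr45b call (0.0525). Wipi2, which recruits the ATG16L1 complex, was higher instead (0.36, SE 0.11). NC replicate 1 had the highest Wipi2 level of its group, 113 against 86.4 and 85.0 CPM, and without it the log2 fold change was 0.51, while the call ended without Ufl1-KO replicate 2 (adjusted p = 0.0544) or NC replicate 3 (0.0602). Zfyve1 (DFCP1, a marker of the site where autophagosomes form) was the weakest of the lower calls at -0.18 (SE 0.07, edgeR adjusted p = 0.0443), library size scaling put its adjusted p at 0.981, and leaving out any 1 library but NC replicate 1 put it at 0.107 to 0.144.

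Of the 11 conjugation genes, 4 were higher, 4 lower and 3 not called, near the 33.3% higher and 33.4% lower of all genes. Atg7 is the activating enzyme, Atg3 and Atg10 are the conjugating enzymes for ATG8 proteins and for Atg12, Atg5 receives Atg12, and Atg16l1 joins them. The conjugating enzymes went opposite ways. Atg3 (chr16:45158785-45188538, plus strand) was at 36.1, 36.4 and 36.9 CPM in Ufl1-KO and at 21.1, 26.1 and 22.2 CPM in NC. It was 1.57-fold higher in non-overlapping groups (log2 fold change 0.65, SE 0.09, edgeR adjusted p = 0.000286). Atg10 (chr13:90935356-91223968, minus strand) was a low gene, at 2.86, 3.82 and 4.15 CPM in Ufl1-KO and 5.11, 9.996 and 8.37 CPM in NC. Its groups did not overlap, but NC replicate 1 lay near Ufl1-KO, and the fall of -1.12 had the widest error of any member (SE 0.25, edgeR adjusted p = 0.00373). Without NC replicate 1 it was -1.35.

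Atg5 (chr10:44268358-44364291, plus strand) was at 29.3, 28.6 and 29.2 CPM in Ufl1-KO and at 19.8, 18.7 and 18.2 CPM in NC. The tight groups were far apart, a 1.53-fold rise (log2 fold change 0.62, SE 0.08, edgeR adjusted p = 0.000146). Its partner Atg12 was not called with all libraries (-0.21, edgeR adjusted p = 0.0646), but without NC replicate 1 it was lower (-0.28, adjusted p = 0.000124). Atg7 (chr6:114643097-114860614, plus strand) was at 25.2, 23.3 and 23.9 CPM in Ufl1-KO and at 21.4, 25.4 and 26.9 CPM in NC. Its groups overlapped, with a log2 fold change of -0.02 and a 95% interval from -0.25 to 0.20. Measured as FPKM, however, Atg7 was higher in Ufl1-KO, at 11.4, 11.7 and 12.4 against 8.45, 9.08 and 10.3 (limma on log2(FPKM + 1), 0.32, adjusted p = 0.0142).

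Of the ATG16L genes, Atg16l2 fell further than Atg16l1. Atg16l2 (chr7:101263034-101302251, minus strand) was at 5.90, 6.05 and 7.53 CPM in Ufl1-KO and at 9.79, 11.5 and 13.8 CPM in NC. The groups were apart, with a 1.80-fold fall (-0.84, SE 0.16), and -0.94 without NC replicate 1. Atg16l1 fell by 0.29 on the log2 scale (SE 0.08), a call lost with library size scaling (adjusted p = 0.237), from FPKM (0.273), and without Ufl1-KO replicate 2 (0.0525) or 3 (0.055).

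The ATG4 proteases cut ATG8 proteins before conjugation and release them from membranes afterwards. Their 4 genes went 3 ways: Atg4a and Atg4d rose, Atg4c fell (-0.44, SE 0.09), and Atg4b, at -0.03, was not called. Atg4a (chrX:140956907-141164270, plus strand) was at 14.01, 15.0 and 15.5 CPM in Ufl1-KO and at 9.91, 9.62 and 7.90 CPM in NC, a 1.62-fold rise without overlap (SE 0.12 on a log2 fold change of 0.70). Atg4d (chr9:21265293-21277772, plus strand) was at 16.9, 17.0 and 17.3 CPM against 9.19, 9.45 and 9.19 CPM. It had the largest rise of all members by counts, 1.84-fold (log2 fold change 0.88, SE 0.09, edgeR adjusted p = 4.89e-05). By FPKM the call was absent (log2(FPKM + 1), 0.17, adjusted p = 0.255), and the FPKM of the groups overlapped, at 2.99, 3.38 and 3.39 against 2.40, 3.50 and 2.49.

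**Figure D2:**
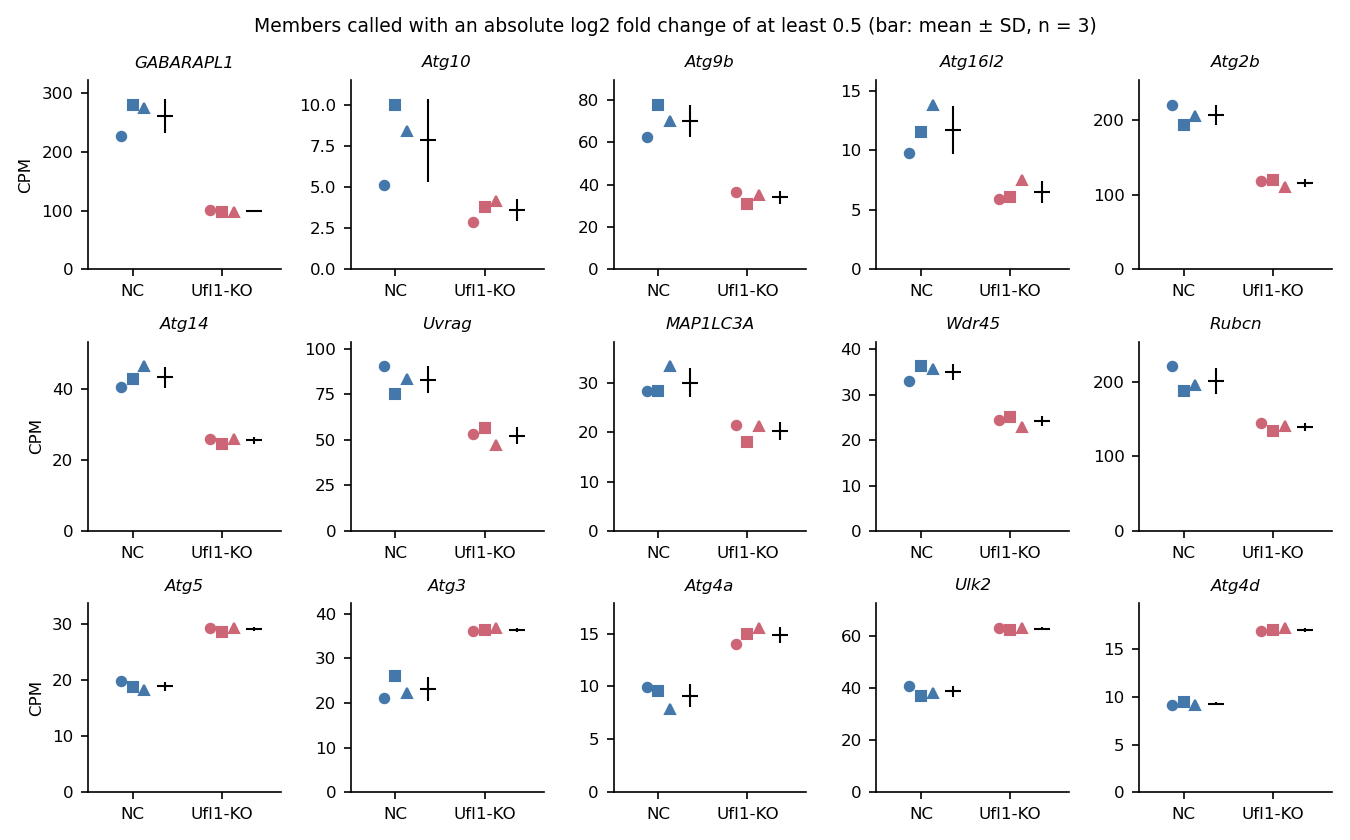
CPM (y axis, from 0, a scale for each gene) in the 3 NC libraries (blue) and 3 Ufl1-KO libraries (red) for the 15 members called with an absolute log2 fold change of at least 0.5. Circles, squares and triangles are replicates 1, 2 and 3, crosses with bars are mean ± SD, and the groups do not overlap in any panel. NC replicate 1 is the NC value nearest Ufl1-KO in 9 of the 15 panels, and over all genes it was also the NC library nearest Ufl1-KO.

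The ATG8 family carried the largest change. These small proteins are fixed to the growing membrane, where they tether it and bind receptors. GABARAPL1 (chr6:129533160-129542346, plus strand) was at 102, 98.6 and 97.5 CPM in Ufl1-KO and at 227, 280 and 275 CPM in NC. The Ufl1-KO libraries were close together and far below NC, a 2.63-fold fall (log2 fold change -1.39, SE 0.09, edgeR adjusted p = 2.32e-06). Over all alternative fits it lay between -1.47 and -1.13. Exons of 1700101I11Rik overlap GABARAPL1 on the opposite strand over 570 bases.

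MAP1LC3A (LC3A, chr2:155276297-155278073, plus strand) was at 21.4, 18.1 and 21.3 CPM in Ufl1-KO and at 28.5, 28.4 and 33.4 CPM in NC. It was lower in every Ufl1-KO library (log2 fold change -0.57, SE 0.11, edgeR adjusted p = 0.00121). GABARAPL2 (GATE-16, chr8:111940703-111953612, plus strand) was at 72.4, 75.0 and 67.2 CPM against 57.2, 48.4 and 54.9 CPM. It was the family's riser, with groups apart (0.42, SE 0.08, edgeR adjusted p = 0.00189). GABARAP (chr11:69991143-69994951, plus strand) was at 215, 187 and 204 CPM in Ufl1-KO and at 204, 282 and 271 CPM in NC. NC replicate 1 lay among the Ufl1-KO libraries, so the groups overlapped. The call for GABARAP (-0.32, SE 0.12, edgeR adjusted p = 0.0358) was lost in 10 of 18 alternative fits, among them library size scaling (-0.14, adjusted p = 0.299) and those without any 1 of the Ufl1-KO libraries and NC replicates 2 and 3 (0.0543 to 0.136). It was -0.44 without NC replicate 1.

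Levels of different genes are compared per transcript length, as FPKM. The 4 ATG8 genes summed to 285 ± 16.0 FPKM in Ufl1-KO and 369 ± 41.8 FPKM in NC (SD, n = 3 each). The share of GABARAPL1 in this sum was 21.8%, 21.4% and 21.2% in the Ufl1-KO libraries, against 37.1%, 37.2% and 35.97% in NC. GABARAPL2 held 15.2%, 17.5% and 14.8% against 10.1%, 6.78% and 7.75%, and GABARAP held 56.2%, 54.7% and 56.9% against 45.3%, 50.1% and 49.2%. Shares sum to 100%, so they are not separate measurements: the GABARAP share was higher in Ufl1-KO although its FPKM was 160 ± 11.6 there and 179 ± 29.0 in NC (SD, n = 3 each). The shares of these 3 genes did not overlap between groups (exact two-sided permutation test over libraries, p = 0.1 each, the smallest that 3 against 3 allows). That of MAP1LC3A overlapped, at 6.75 ± 0.349% and 6.89 ± 0.801% (SD, n = 3 each, exact permutation p = 0.8). Map1lc3b is not part of these sums.

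**Figure D3:**
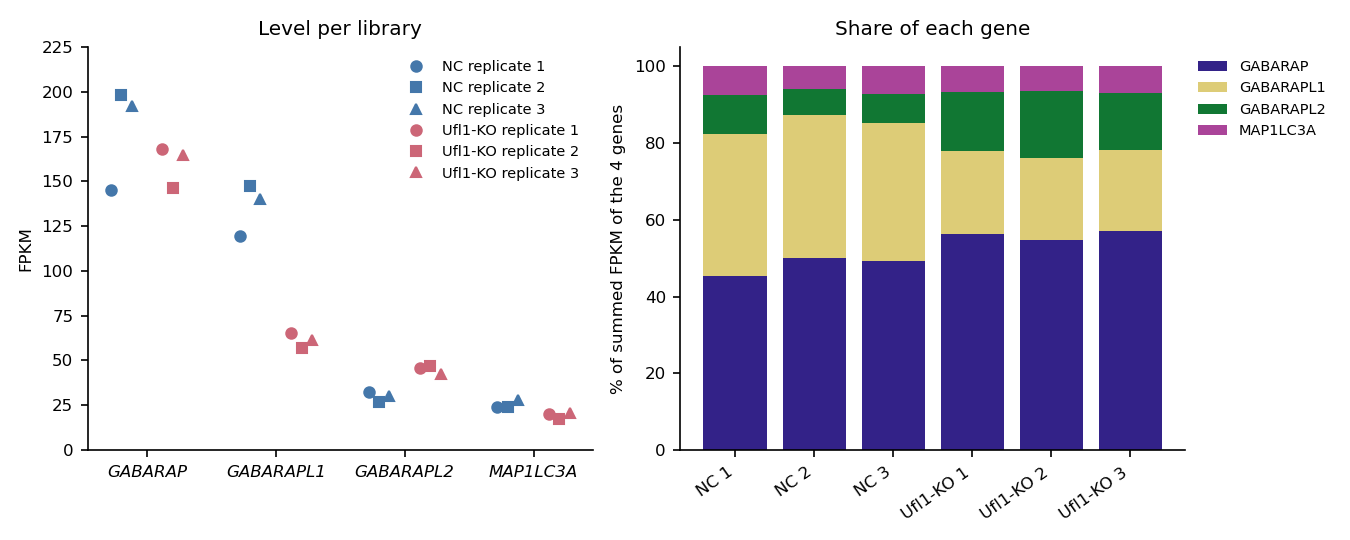
Left, FPKM (y axis) of the 4 ATG8 genes in each NC library (blue) and Ufl1-KO library (red), with circles, squares and triangles for replicates 1, 2 and 3. Right, the share in percent of the 4 genes' summed FPKM held by each gene in each library, where the GABARAPL1 band narrows from 35.97% to 37.2% in NC to 21.2% to 21.8% in Ufl1-KO.

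Cargo receptors bind ubiquitin-marked cargo and ATG8 proteins together. Sqstm1 (p62, chr11:50199366-50210827, minus strand) had the highest FPKM of all members, 257 ± 3.37 in Ufl1-KO and 313 ± 25.3 in NC (SD, n = 3 each). Its counts were 507, 497 and 497 CPM against 614, 720 and 725 CPM. Every Ufl1-KO library was lower, and the fall held in every alternative fit (log2 fold change -0.46, SE 0.07, edgeR adjusted p = 0.000474, from -0.52 to -0.28 over alternatives). Optn (0.31, SE 0.07) and Tax1bp1 (0.21, SE 0.07) were higher, and the Tax1bp1 call was lost without Ufl1-KO replicate 1 or 2 or NC replicate 2 or 3 (adjusted p from 0.0903 to 0.115). Nbr1, at -0.03 by counts, was not called, and with library size scaling it was higher (0.15, adjusted p = 0.0432).

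The late steps and the transcription factors held small differences. Epg5, which tethers autophagosomes to lysosomes and late endosomes, was not called (0.16, edgeR adjusted p = 0.156). It was called higher in 4 of 18 alternative fits. Among them were the edgeR fits without NC replicate 1 (0.24, adjusted p = 0.0052) and with library size scaling (0.33, adjusted p = 0.0106). Tfeb and Tfe3 activate lysosome and autophagy genes once they enter the nucleus. Tfe3 (chrX:7762560-7775202, plus strand) was at 82.0, 78.9 and 80.0 CPM in Ufl1-KO and at 87.1, 99.7 and 108 CPM in NC. It was lower without overlap (-0.29, SE 0.08, edgeR adjusted p = 0.0128), and the call ended with library size scaling (-0.11, at an adjusted p of 0.236), or when Ufl1-KO replicate 2 (0.0534) or NC replicate 3 (0.0587) was left out. Tfeb (chr17:47737030-47792419, plus strand) was at 8.85, 8.50 and 9.42 CPM against 8.89, 9.34 and 10.4 CPM, with overlapping groups (-0.09, 95% interval from -0.36 to 0.17).

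Ratios of related genes within a library do not depend on how libraries are scaled. Of 12 pairs listed, 11 had a ratio and 10 had ratios that did not overlap between the groups. No share over other gene pairs was computed, and the CPM of single genes did not overlap in 71.7% of all genes. Each of those 10 had an exact two-sided permutation p of 0.1, or 0.11 when adjusted over the 11 pairs, so none could pass 0.05. GABARAPL1 over GABARAPL2 was 1.43, 1.22 and 1.43 in the Ufl1-KO libraries, against 3.69, 5.48 and 4.64 in NC, a change of -1.74 on the log2 scale. The kinase pair was the tightest, with Ulk1 over Ulk2 at 1.90, 1.89 and 1.92 against 3.53, 3.42 and 3.47. Wipi1 over Wipi2 moved by -0.86, Atg4a over Atg4b by 0.85, and Atg9a over Atg9b by 0.73. Tfeb over Tfe3 was the pair that overlapped (0.16, exact permutation p = 0.3).

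**Figure D4:**
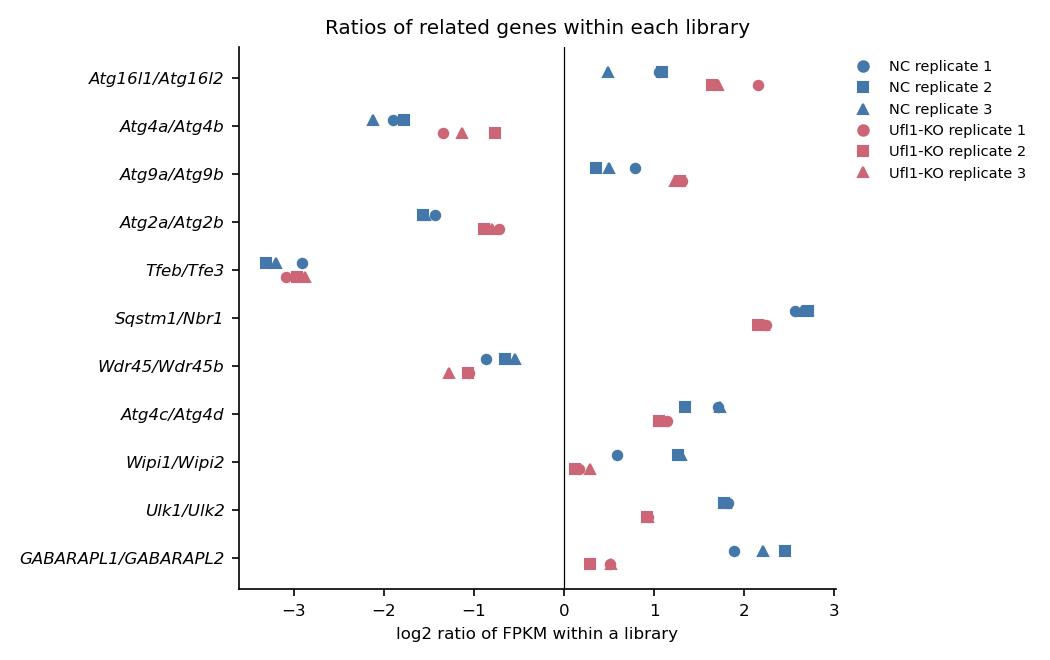
Log2 ratio of FPKM (x axis) of 11 pairs of related autophagy genes in each NC library (blue) and Ufl1-KO library (red), with circles, squares and triangles for replicates 1, 2 and 3. The groups are apart in 10 pairs, and farthest for GABARAPL1/GABARAPL2, with a difference of -1.74. The CPM of single genes did not overlap in 71.7% of all genes, and other pairs were not examined.

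Estimated counts and FPKM gave unequal answers for some members. In Atg4d and Atg7 the transcript length that links the measures differed between the groups. In Atg13, Epg5, Zfyve1 and Atg16l1 it was the same within 1%, and their calls also changed with library size scaling of the counts. Scaling moved Atg7 as well, from a log2 fold change of -0.02 with TMM to 0.16 with library size (edgeR adjusted p = 0.182). The transcript length was obtained for each gene and library from the count, the FPKM and the library total, a measure added after the values were seen. It was the same within 1% over all libraries in 18 of the 44 members, and in 9 it lay within 1 base of an annotated transcript in each, as for Atg3 (2057 bases), Ulk2 (5743 bases) and Atg9b (3902 bases). The mean length differed at least 1.2-fold between the groups in 2 members, Atg4d and Atg16l2 (4.55%), and in 228 of 10281 genes with a length (2.22%).

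For Atg4d the length was 5952, 5289 and 5431 bases in Ufl1-KO and 3633, 2517 and 3409 bases in NC. Its only annotated coding transcript has 5951 bases, and its other transcripts, with retained introns or subject to decay, have 445 to 2123 bases. In Ufl1-KO the length was thus closer to that of the coding transcript, and in NC it lay between that and the shorter ones. Exons of Atg4d overlap those of Kri1 on the opposite strand over 1405 bases, and the part of that overlap was not tested. For Atg16l2 the length was 2473, 1953 and 2555 against 1769, 1887 and 1573 bases, and its FPKM was 2.52, 3.25 and 3.14 against 5.24, 5.68 and 8.12. Lengths of Atg10 moved the same way by less, from 1334 ± 80.9 in NC to 1517 ± 65.5 bases in Ufl1-KO, and that of Atg7 moved down, from 2473 ± 109 to 2158 ± 151 bases (SD, n = 3 each).

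**Figure D5:**
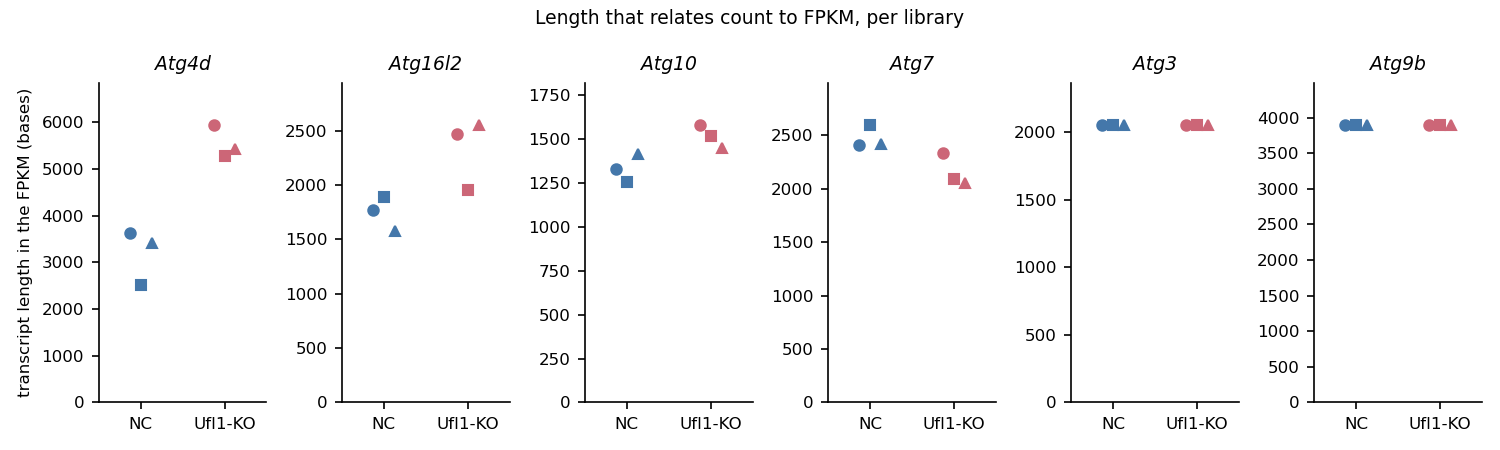
Transcript length in bases (y axis, from 0) that relates the estimated count to the FPKM, in each NC library (blue) and Ufl1-KO library (red), with circles, squares and triangles for replicates 1, 2 and 3. The length rises in Ufl1-KO for Atg4d, Atg16l2 and Atg10, falls for Atg7, and is constant for Atg3 and Atg9b.

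Other genes of the pathway were read from lists made for this comparison. Of 18 tested genes for fusion with the lysosome, 10 were higher and 2 lower, beside 33.3% and 33.4% of all genes, and their median log2 fold change was 0.21. Without NC replicate 1, 5 were lower, where 37.1% of all genes were. The SNARE gene Ykt6 was at 87.9, 98.4 and 89.3 CPM in Ufl1-KO and at 35.2, 22.5 and 24.2 CPM in NC, far apart (log2 fold change 1.75, SE 0.15, edgeR adjusted p = 1.39e-05). Its fellow SNARE Snap29, the tethering complex subunit Vps33a and the tether Tecpr1 rose by 0.68 each.

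Of 28 genes of the AMPK and mTORC1 kinases upstream of ULK1, 12 were higher and 4 lower, against the same shares of all genes, with a median of 0.13. The AMPK subunit gene Prkab2 (-1.46, SE 0.07), the AMPK-activating kinase gene Stk11 (LKB1, -0.85, SE 0.08) and the mTOR inhibitor gene Deptor (-0.99, SE 0.11) fell, and the AMPK subunit gene Prkag1 (0.58, SE 0.07) rose. Of 19 tested genes for other cargo receptors, 2 were higher and 9 lower, where all genes had 33.3% and 33.4%, with a median of -0.13. The glycogen receptor gene Stbd1 was at 61.2, 59.6 and 68.0 CPM in Ufl1-KO and at 243, 343 and 317 CPM in NC (log2 fold change -2.26, SE 0.12, edgeR adjusted p = 1.34e-06). The endoplasmic reticulum receptor Calcoco1 (-1.10), the ferritin receptor NCOA4 (-0.83) and the mitochondrial receptor Bnip3l (-0.76) also fell. With library size scaling the receptor list held 7 higher and 4 lower genes, near the 43.9% and 25.5% of all genes.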

How the data were processed

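Total RNA of 6 MEF libraries was sequenced, 3 Ufl1-KO and 3 NC. Per the submitters' processing notes, fastp 0.20.1, STAR 2.7.7a and featureCounts 2.0.0 were used, with the builds mm10, hg38 and GRCh38 named without a role. Neither an annotation nor a strand setting is stated.

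The estimated counts, as deposited, carry no normalisation. In each library, 7.29% to 8.09% of values were more than 0.001 from a whole number, so they were rounded. FPKM values, also deposited, are those counts divided by a transcript length and the library total. Of 22274 rows, 1225 named no gene (0.594% to 0.661% of counts) and were left out. The 1045 names on several rows, in any case, were summed.

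Tests on counts used edgeR 4.0.16 under R 4.3.3: quasi-likelihood test, TMM scaling, filterByExpr, genotype as the only term, two-sided, Benjamini-Hochberg adjustment over 12224 genes at 0.05. The fit was tested on simulated counts in which few genes changed, up or down at random, with the same spread for every gene. It recovered 82.1% of 1.5-fold changes and called 0.108% of unchanged genes. Scaling where most genes differ, as in these data, was not tested that way. Each log2 fold change sets Ufl1-KO over NC, and its SE is the fold change over the root of F. Replicates differed beyond sampling noise in every pair (chi-square per gene of at least 2.35). The precision is that of 3 libraries per group.

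Alternatives were DESeq2 1.42.0 (size factors and Wald test), upper-quartile or library size scaling, limma 3.58.1 (voom), no filter, a CPM of at least 1 in 3 libraries, rows tested separately, limma on log2(FPKM + 1) or log2(FPKM + 0.1) for a mean FPKM of at least 0.1, log2(FPKM + 1) unfiltered, a replicate block, and each library left out. Coordinates are from GENCODE M21 (GRCm38), matched by symbol for all 45 members. Summaries and plots were made in Python 3.11.15 with scipy 1.17.1, pandas 2.3.3, matplotlib 3.10.9 and numpy 2.4.6.

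Full values are given for members called with an absolute log2 fold change of at least 0.5, for the ATG8 genes and for Ulk1, Rb1cc1, Becn1, Atg5, Atg7, Sqstm1, Tfeb and Tfe3, and up to 4 genes with the smallest p are named from each other list. The members, lists and rules were chosen with earlier results of these data known.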

Additional observations from a re-analysis of the deposited data

How the results depend on the processing

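Of the calls for single members, 8 of 14 higher, 12 of 20 lower and 5 of 10 uncalled genes kept their side of the threshold and direction under all 18 alternatives. The same shares were not computed for all genes. With library size scaling, 12 members were lower with a median of 0.078, other cargo receptors were 7 higher and 4 lower, and Nbr1 turned to 0.15. In the 3 FPKM fits, 13 members were lower, the members' median was 0.016, 0.018 (pseudocount 0.1) and 0.016 (no filter), 1 fusion gene was lower, and other cargo receptors were 6 higher and 4 lower. In the same order Ulk1 turned to 0.0085, 0.0090 and 0.0085, Atg7 to 0.32, 0.35 and 0.32, and Nbr1 to 0.15 without a filter. In the FPKM fits, in that order, 5191, 5191 and 5165 of all genes were higher and 2989, 3001 and 2984 lower, of 12785, 12785 and 15423. Their medians were 0.13, 0.17 (pseudocount 0.1) and 0.04 (no filter). Leaving out 1 library gave 10 to 15 higher and 15 to 21 lower members. In those fits 3488 to 4783 of all genes were higher and 3607 to 4594 lower, of 12293 to 12405 tested. Lower fusion genes numbered 2 to 5, with 5 when NC replicate 1 was left out, and the cause was not tested. Same-numbered libraries correlated at 0.018, -0.175 and 0.013 in their deviations from the group means. Deviations from a mean of 3 libraries depend on each other, so these values cannot decide whether the numbers pair libraries. With the replicate block, 12 members were higher and 18 lower, beside 3892 and 3910 of all 12224 genes. By counts in place of FPKM, chosen after seeing the data, Atg4c over Atg4d changed by -1.31 instead of -0.50, and Atg16l1 over Atg16l2 by 0.55 instead of 0.96. Calcoco2, with 0 or 1 count per library, was too low to test.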
